A study of Mus musculus with 12 samples.

Results

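The genes described here are those of the mitochondrial carrier family Slc25, 46 of the 18820 genes measured in skeletal muscle and heart of thymidine kinase 2 (Tk2) knockout and wild-type mouse pups. A gene was counted as a member when a probe set carried 1 gene symbol and that symbol was Slc25a followed by a number. Membership was decided by symbol alone, although earlier results of these data were known when the family was chosen. Where a gene had several probe sets (4 members, with 51 probe sets in all over the 46 members), the brightest one was read.

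Affymetrix Mouse Gene 1.1 ST arrays had been hybridised with total RNA from 4 groups of C57BL/6 pups, all 11 days old. The groups were wild-type (Tk2+/+) hind limb skeletal muscle, knockout (Tk2-/-) hind limb skeletal muscle, Tk2+/+ heart and Tk2-/- heart, with 3 arrays each and 12 in total. The study compared the genotypes within each tissue to learn how both muscles respond when the enzyme, and with it mitochondrial DNA, is lost. The knockout pups came from heterozygous parents and carry the disrupted gene in every tissue. The series describes 3 pups per genotype as the source of both tissues, without saying whether a replicate number marks the same pup.

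Mitochondrial carriers are small proteins of the inner mitochondrial membrane that exchange one solute for another, and most metabolites can cross that membrane only through them. Family members move ADP and ATP, phosphate, nucleotides, coenzymes, keto acids, amino acids, acylcarnitines, iron and glutathione, and all are encoded in the nucleus. Muscle and heart rely on them to export ATP to the contractile apparatus, and the import of pyrimidine nucleotides feeds the synthesis of mitochondrial DNA, to which TK2 also contributes.

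The signal of Tk2 itself was 64.8 ± 3.17 (SD, n = 3) in Tk2+/+ skeletal muscle and 52.5 ± 10.8 in Tk2-/- skeletal muscle (adjusted p = 0.208), and 75.2 ± 5.98 in Tk2+/+ heart against 36 ± 8.92 in Tk2-/- heart (adjusted p = 7.62e-05). After quantile normalization within the tissue its log2 fold change was -0.16 (adjusted p = 0.394) in muscle and -0.38 (adjusted p = 0.0328) in heart. The sources used here do not state which part of Tk2 was disrupted or whether its probes lie there. The labelled tissues matched their markers: 12 of 13 genes of the skeletal muscle fibre were higher in Tk2+/+ muscle, and 11 of 12 cardiomyocyte genes were higher in Tk2+/+ heart. The mean signal per array was 201.8 to 252.4 in the 6 muscle arrays and 227.4 to 242.6 in Tk2+/+ heart, but 146.7 to 168.4 in Tk2-/- heart. Over all genes the log2 fold change had a median of -0.28 in heart and -0.02 in skeletal muscle, and genotype changes in heart are given both as deposited and after quantile normalization within the tissue. In bulk tissue, fewer cells of a type and less RNA per cell cannot be told apart.

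In skeletal muscle, 7 carrier genes were higher and 4 were lower in Tk2-/- pups. The increases were led by Slc25a28, an iron importer, Slc25a27, a relative of the uncoupling proteins, and Slc25a33, a carrier of pyrimidine nucleotides, which rose by 1.03, 0.89 and 0.77 on the log2 scale. Slc25a38, a glycine carrier used for haem synthesis, rose by 0.57, and Slc25a17, Slc25a44 and Slc25a32 rose by 0.39 to 0.43. The decreases were Slc25a25, a calcium-regulated carrier of ATP-Mg and phosphate, which fell by 1.64, and Slc25a39, Slc25a35 and Slc25a24, which fell by 0.34 to 0.43.

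These calls came from limma with Benjamini-Hochberg adjustment over all genes at 0.05. Among all genes 11.6% were called higher and 10.9% lower, so the members' shares, 15.2% and 8.7%, were close to the background. The median over the 46 members was 0.10. Quantile normalization within the tissue kept all 11 calls and added Slc25a22 and Slc25a34 (9 higher against 14.5% of all genes, 4 lower against 14.5%). The 3 arrays of a genotype did not overlap with those of the other for 10 members that were higher and 7 that were lower (16.9% and 18.8% of all genes). The number of members called higher fell to 3 without Tk2+/+ skeletal muscle replicate 1 or without Tk2-/- skeletal muscle replicate 2, where Slc25a28, Slc25a27 and Slc25a33 stayed past the threshold. At the study's thresholds (an unadjusted p of 0.05 and a fold of 2, taken here on the ratio of the deposited group means) the methods' t-test called 2 members higher and 1 lower (2.17% and 2.8% of all genes).

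In heart, only Slc25a27 and Slc25a28 were higher in Tk2-/- pups as deposited, by 0.69 and 0.40 on the log2 scale, and 31 carrier genes were lower. The Tk2-/- heart arrays were dimmer as a whole: 49% of all genes were called lower and 1.99% higher, and 84.8% of the 4051 genes with a mean signal above 256 were called lower, as were 16 of the 17 members above that level. The median over the 46 members was -0.49. After quantile normalization within the heart the median was 0.01. Of the 31 decreases, 6 were still past the threshold: those of Slc25a35, Slc25a22, Slc25a23, Slc25a24, Slc25a37 and Slc25a15, with values from -0.82 to -0.31. Slc25a27, Slc25a28 and Slc25a16 were then higher, by 1.20, 1.10 and 0.34. Among all genes 16.1% were called higher and 16% lower after this step, against 6.52% and 13.0% of the members. The deposited heart arrays did not overlap between genotypes for 32 members that were lower and 2 that were higher (53.3% and 3.16% of all genes). By the methods' t-test at the study's thresholds 0 members were higher and 7 lower (0.452% and 14.4% of all genes), and 2 were higher at an unadjusted p under 0.05 alone.

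**Figure D1:**
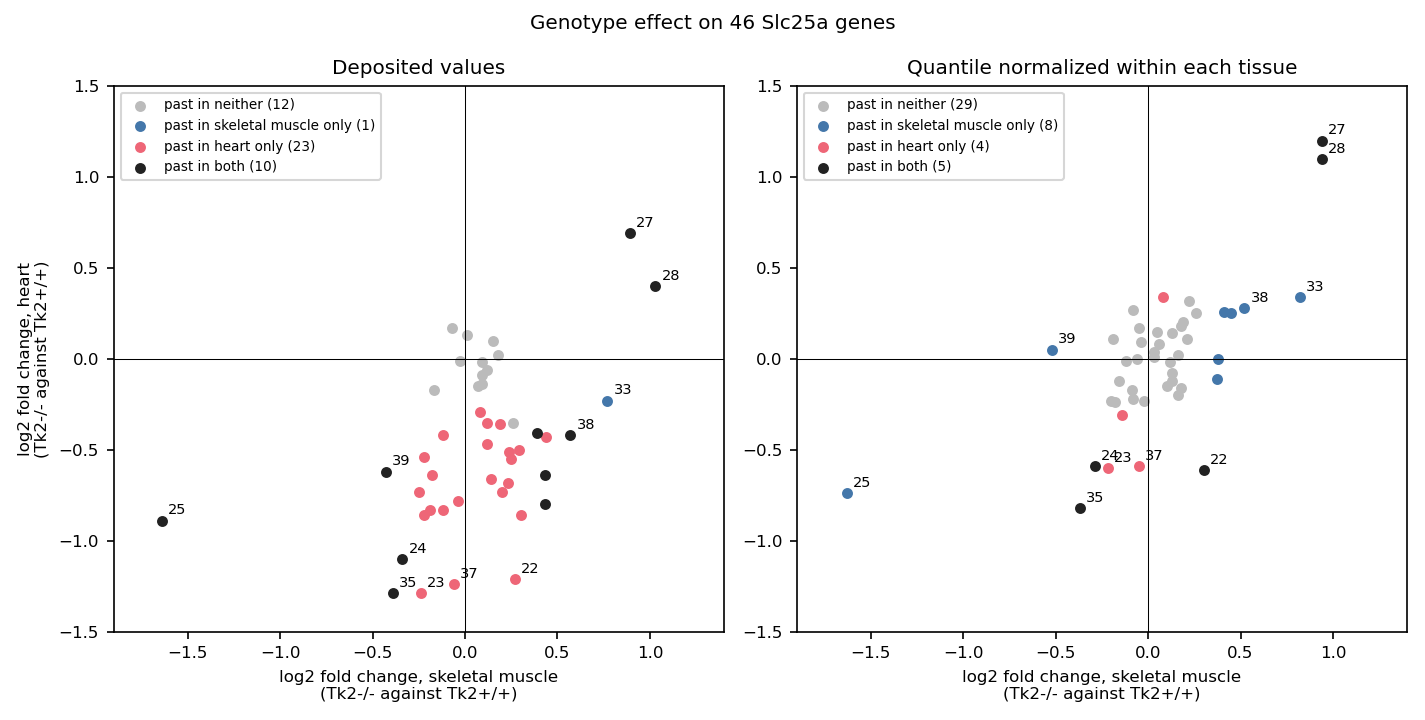
Log2 fold change between genotypes of the 46 carrier genes in skeletal muscle (horizontal axis) and in heart (vertical axis), from the deposited values (left) and after quantile normalization within each tissue (right); colours give the tissues in which adjusted p was under 0.05, and numbers are the gene's number in Slc25a. On the left most points lie below 0 in heart (31 members called lower), and on the right they gather near 0, with Slc25a27 and Slc25a28 alone at the upper right.

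**Figure D2:**
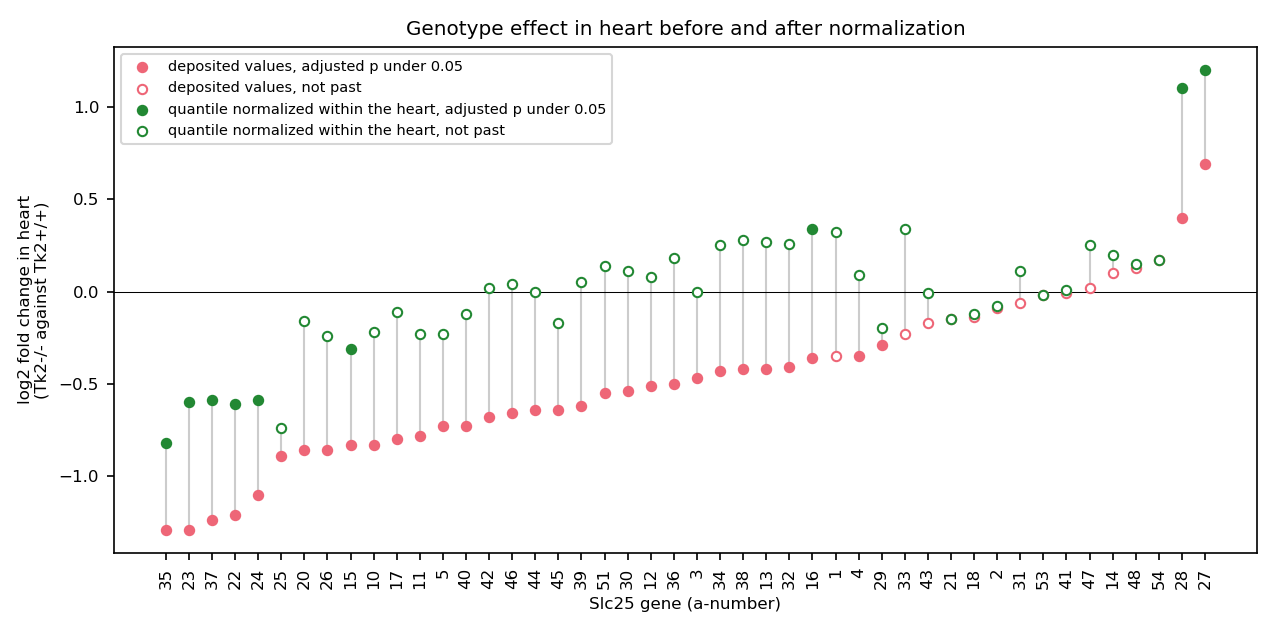
Log2 fold change of each carrier gene in heart (Tk2-/- against Tk2+/+), as deposited (red) and after quantile normalization within the heart (green), with filled circles for adjusted p under 0.05. Normalization moves nearly every bright member upward, turns members such as Slc25a13 and Slc25a38 from below to above 0, and leaves 6 filled points below 0.

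Marker genes of other cell types moved with genotype, given here as deposited and then after quantile normalization within the tissue. Among all genes 49% were called lower in heart as deposited and 16% after normalization, against which the heart counts are to be read. In skeletal muscle 10.9% and 14.5% of all genes were called lower, and 11.6% and 14.5% higher. In skeletal muscle 6 of 7 adipocyte markers were higher in Tk2-/- pups (5 after normalization), while Lep, the gene of leptin, was lower (-0.63, and -0.57 after normalization). The summed adipocyte signal was 2279 to 2835 in Tk2+/+ and 4093 to 5719 in Tk2-/- muscle arrays. Markers of proliferating cells were lower in both tissues (6 of 7 in muscle and 7 of 7 in heart, also after normalization). Of 7 fibroblast markers 5 were lower in muscle, and in heart 7 were lower as deposited and 5 after normalization, whereas Pdgfra was higher in muscle (0.39 and 0.29) and, after normalization, in heart (0.30). Of 9 macrophage and leucocyte markers 2 were higher in muscle on either scale, led by Cd68 (0.94), and in heart 9 were lower as deposited and 7 after normalization. Endothelial markers were lower in heart (6 of 6 and 4), with 1 lower in muscle as deposited and 3 after normalization. Of 5 brown adipocyte markers, 1 was lower in muscle, and 3 were lower in heart as deposited and 1 after normalization. Genes of the skeletal muscle fibre were lower in heart (9 of 13 and 6), among them Acta1, skeletal actin (-3.56 and -2.90), and Casq1, a calcium store protein of fast fibres (-3.07 and -2.49). Their summed signal was 8193 to 8351 in Tk2+/+ and 4217 to 4928 in Tk2-/- heart. In skeletal muscle 0 of these 13 genes were called on either scale. The cardiomyocyte list, which holds Actc1, an actin that immature skeletal muscle also makes, summed to 7917 to 10404 in Tk2+/+ and 3728 to 3961 in Tk2-/- skeletal muscle. Actc1 alone had means of 7328 and 2446 there, and 2 of the 12 genes were lower in muscle on either scale. In heart 5 of the 12 were lower as deposited, and 1 was lower and 2 were higher after normalization. The part of these cells in the carrier results was not tested.

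The genotype effect was compared between the tissues by an interaction term, the log2 fold change in skeletal muscle minus that in heart. As deposited, 29 members were higher by this measure and 0 lower (41.3% and 1.39% of all genes), and 0 were lower at an unadjusted p under 0.05 as well. After quantile normalization within each tissue, 1 member was higher and 1 lower (5.13% and 5.03% of all genes). Slc25a22, a glutamate carrier, had an interaction of 1.48 ± 0.16 (SE, adjusted p = 3.06e-05) as deposited and 0.91 (adjusted p = 0.00145) after normalization. Slc25a39, a glutathione carrier, had 0.20 ± 0.15 (adjusted p = 0.338) as deposited and -0.56 (adjusted p = 0.00225) after it, so its sign depended on the scaling.

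Between the wild-type tissues the log2 differences of the members ran from -4.60 to 1.83, against -1.64 to 1.03 between genotypes in muscle. Slc25a13, an aspartate/glutamate carrier, was lower in Tk2+/+ skeletal muscle than in Tk2+/+ heart (-4.60 on the log2 scale), as was Slc25a34, a carrier of little known substrate (-2.36). Slc25a5, an ADP/ATP carrier, and Slc25a20, the acylcarnitine carrier, were lower in muscle too (-1.20 and -1.10). Higher in muscle were Slc25a25 by 1.83 and, by smaller amounts, Slc25a12 (0.52) and Slc25a44 (0.44), together with the dim Slc25a41 (0.67). In all, 10 members were higher in muscle (30.6% of all genes) and 16 were lower (18.4%), and the arrays did not overlap for 11 and 16 members (35.6% and 20.1%). The median over members was -0.04 and over all genes 0.12. After quantile normalization over the 12 arrays 5 members were higher and 16 lower (19.3% and 21.4%), and the 8 members named here kept their direction. At the study's thresholds the methods' t-test gave 2 higher and 5 lower (8.97% and 4.68%).

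**Figure D3:**
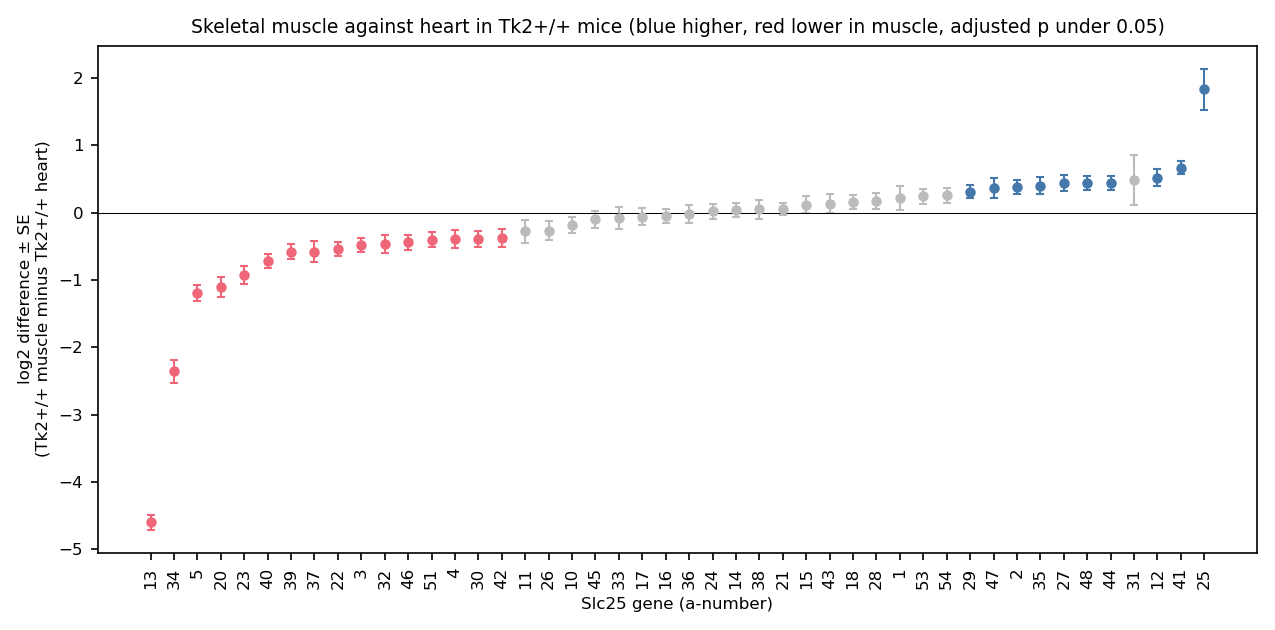
Log2 difference between Tk2+/+ skeletal muscle and Tk2+/+ heart for the 46 carrier genes, ordered by size, with standard errors as bars and colour for adjusted p under 0.05. Slc25a13 (-4.60) and Slc25a34 (-2.36) stand apart at the left and Slc25a25 (1.83) at the right.

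The iron and glutathione carriers were Slc25a28 and Slc25a37, the mitoferrins that bring iron into the matrix for haem and iron-sulfur clusters, and Slc25a39 and Slc25a40, which bring in glutathione. In skeletal muscle 1 of these 4 genes was higher (Slc25a28), 1 was lower (Slc25a39) and 2 did not pass. Over all genes 11.6% were called higher and 10.9% lower there. The 250 bases before the start of Slc25a28 lie at chr19:43674882-43675131 on the minus strand of GRCm38.p6 (RefSeq). They are shown because this gene had the largest increase of the family in muscle, with CCAAT boxes (CCAAT) and GC boxes (GGGCGG) in capitals.
Slc25a28: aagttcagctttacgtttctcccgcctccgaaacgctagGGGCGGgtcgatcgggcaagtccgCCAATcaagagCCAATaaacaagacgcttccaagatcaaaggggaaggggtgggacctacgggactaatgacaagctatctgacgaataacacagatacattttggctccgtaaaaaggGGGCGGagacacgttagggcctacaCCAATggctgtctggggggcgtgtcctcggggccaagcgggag

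The signal of Slc25a28 was 244.5, 264.7 and 255.6 in Tk2+/+ skeletal muscle and 535.7, 601.8 and 476.7 in Tk2-/- skeletal muscle. Every knockout array lay well above every wild-type array, and the log2 fold change was 1.03 ± 0.12 (SE, adjusted p = 2.06e-05). In heart the signal was 232.8, 221.3 and 221.2 in Tk2+/+ and 333.2, 248.9 and 335 in Tk2-/- pups. There too the genotypes did not overlap, although replicate 2 of the knockout was close to the wild-type arrays, and the change was 0.40 ± 0.12 (adjusted p = 0.00893) as deposited and 1.10 (adjusted p = 0.000102) after quantile normalization. The increase of Slc25a28 stayed past the threshold in both tissues without any single array.

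Slc25a37, the mitoferrin that red cell precursors use most, gave another picture. Its signal in skeletal muscle was 139.6, 152.6 and 120.6 in Tk2+/+ and 115.3, 170.7 and 111.8 in Tk2-/- pups, which overlapped (log2 fold change -0.06 ± 0.16, adjusted p = 0.854). In heart it was 203.2, 196.3 and 242.8 in Tk2+/+ and 103.1, 76.93 and 66.16 in Tk2-/- pups. The heart genotypes did not overlap, and the gene fell by 1.24 ± 0.16 (adjusted p = 1.44e-05) as deposited and by 0.59 (adjusted p = 0.00769) after normalization. Erythroid markers, of which 5 of 14 listed were measured, moved with it in heart. There 4 of the 5 were lower as deposited (49% of all genes) and 3 after normalization (16% of all genes). Their summed signal was 2879 to 3805 in Tk2+/+ and 496 to 1326 in Tk2-/- hearts. In skeletal muscle 0 of these 5 markers were called on either scale. Their part in the result for Slc25a37 was not tested.

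Slc25a39 was lower in Tk2-/- skeletal muscle, with 456.6, 546.7 and 441.5 in Tk2+/+ and 369.3, 355.6 and 333.7 in Tk2-/- arrays. No array overlapped, and the log2 fold change was -0.43 ± 0.11 (adjusted p = 0.00798) as deposited and -0.52 (adjusted p = 6.13e-05) after normalization. In heart the arrays read 772, 652.9 and 751.8 against 456.8, 490.2 and 446.2. That difference (-0.62 ± 0.11, adjusted p = 0.000127) turned to 0.05 (adjusted p = 0.601) after normalization. Slc25a40, the close relative of Slc25a39, had -0.25 ± 0.11 in muscle (adjusted p = 0.143) and -0.73 ± 0.11 in heart (adjusted p = 7.04e-05), and -0.12 (adjusted p = 0.367) in heart after normalization.

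**Figure D4:**
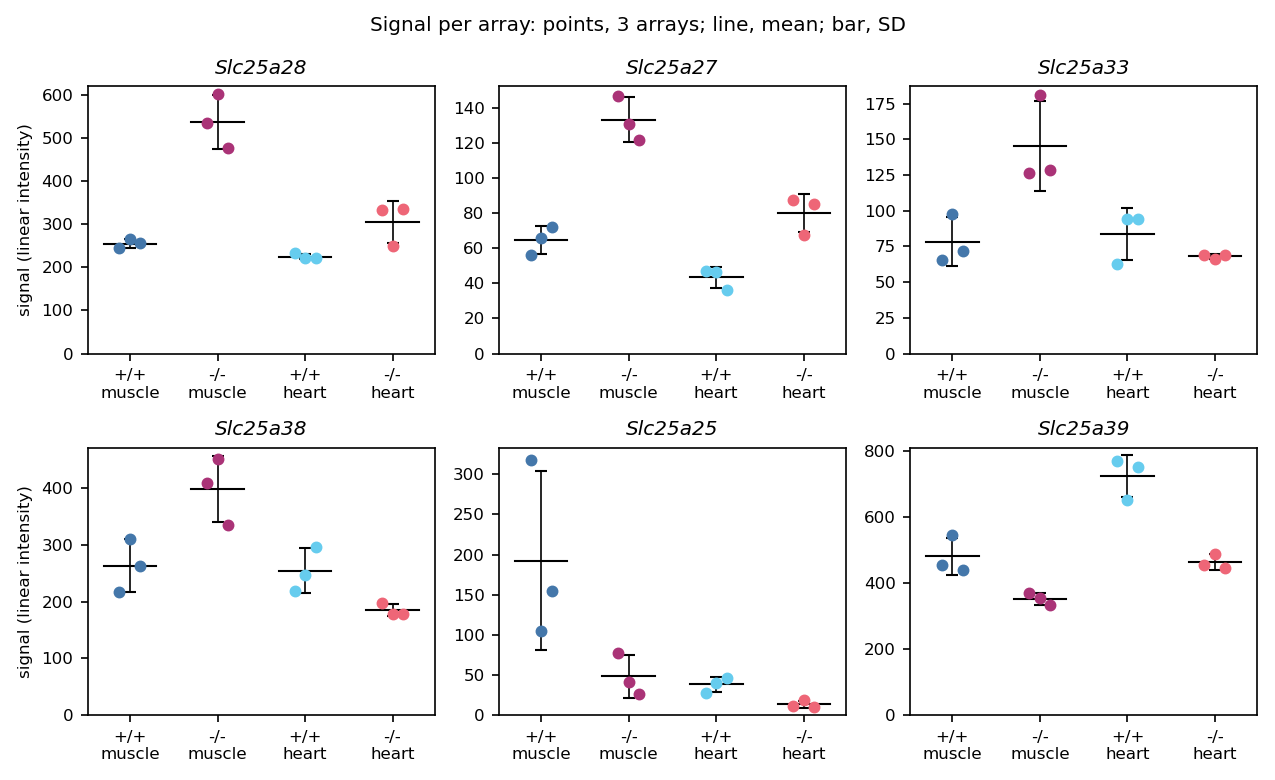
Signal of 6 carrier genes on each of the 12 arrays (points, 3 per group), with group means (lines) and SD (bars) on linear axes that start at 0. The knockout muscle arrays of Slc25a28, Slc25a27, Slc25a33 and Slc25a38 lie above all wild-type muscle arrays, those of Slc25a25 and Slc25a39 below, and 1 wild-type muscle array of Slc25a25 (317.9) stands far above the others; heart values are as deposited, and those of Slc25a33, Slc25a38 and Slc25a39 change sign after normalization.

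Slc25a38 brings glycine into the matrix for the first step of haem synthesis. The 250 bases before its start, at chr9:120110132-120110381 on the plus strand of GRCm38.p6 (RefSeq), are shown for comparison with Slc25a28, with an ETS motif (CCGGAAG) in capitals.
Slc25a38: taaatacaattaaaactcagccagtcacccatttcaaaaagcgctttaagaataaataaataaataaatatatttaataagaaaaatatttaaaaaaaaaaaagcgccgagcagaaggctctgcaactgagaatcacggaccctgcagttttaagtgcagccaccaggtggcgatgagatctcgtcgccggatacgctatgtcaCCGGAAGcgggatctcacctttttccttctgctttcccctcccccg

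In skeletal muscle Slc25a38 read 217.3, 311.3 and 262.9 in Tk2+/+ and 409.3, 452 and 335.4 in Tk2-/- arrays. The lowest knockout array was just above the highest wild-type array, and the log2 fold change was 0.57 ± 0.14 (adjusted p = 0.00853). The call was lost narrowly without Tk2+/+ skeletal muscle replicate 1 (adjusted p = 0.0513) or Tk2-/- skeletal muscle replicate 2 (adjusted p = 0.0517). In heart it read 218.6, 247.5 and 297.3 against 197.4, 178.9 and 178.7, a change of -0.42 ± 0.14 (adjusted p = 0.0212) as deposited and 0.28 (adjusted p = 0.136) after normalization.

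Of the 12 measured genes of mitochondrial iron handling and haem synthesis, 2 were higher and 0 lower in Tk2-/- skeletal muscle by limma. Among all genes 11.6% were higher and 10.9% lower. Of the 12, 3 were higher and 0 lower at an unadjusted p under 0.05. The higher genes were Iscu (0.46), the scaffold of iron-sulfur clusters, and Hspa9 (0.48), a matrix chaperone whose call was lost after normalization (0.30). Isca2, an iron-sulfur assembly factor, was then lower (-0.30). Alas1, the first enzyme of haem synthesis outside red cells, had -0.10 in muscle and fell by 1.38 in heart, and by 0.73 after normalization.

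The pyrimidine nucleotide carriers Slc25a33 and Slc25a36 exchange nucleotides between cytosol and matrix. In skeletal muscle 1 of both was higher (11.6% of all genes), and in heart neither was called after normalization. The promoter of Slc25a33 (250 bases before its start, chr4:149774268-149774517, minus strand, GRCm38.p6, RefSeq) is shown because its gene supplies the nucleotides of mitochondrial DNA. Capitals mark an E-box (CACGTG) whose last base lies 3 bases before the start, a CCAAT box and a GC box read on the other strand (CCGCCC).
Slc25a33: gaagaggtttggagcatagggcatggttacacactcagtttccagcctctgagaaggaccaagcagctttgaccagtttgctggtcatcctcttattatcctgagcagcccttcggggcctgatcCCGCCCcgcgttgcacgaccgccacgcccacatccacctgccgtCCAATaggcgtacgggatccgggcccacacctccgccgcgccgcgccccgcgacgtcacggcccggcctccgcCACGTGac

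Slc25a33 read 65.71, 97.85 and 71.51 in Tk2+/+ skeletal muscle and 126.1, 181.3 and 128.2 in Tk2-/- skeletal muscle. All knockout arrays were above all wild-type arrays, and the log2 fold change was 0.77 ± 0.16 (adjusted p = 0.00254), past the threshold without any single array. Heart arrays read 62.95, 94.02 and 94.52 against 69.15, 65.89 and 68.84. These overlapped, with -0.23 ± 0.16 (adjusted p = 0.261) as deposited and 0.34 (adjusted p = 0.143) after normalization. The difference between the tissues was 1.0 ± 0.23 (adjusted p = 0.00223) as deposited and 0.48 (adjusted p = 0.243) after normalization.

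Slc25a36 read 620.3, 708.5 and 596.7 in Tk2+/+ skeletal muscle and 884.2, 849.4 and 651.4 in Tk2-/- skeletal muscle. The third knockout array fell within the wild-type range, and the change of 0.29 ± 0.13 did not pass (adjusted p = 0.138). Without Tk2-/- skeletal muscle replicate 3 it was 0.43 (adjusted p = 0.0349). In heart the arrays read 648.1, 590.6 and 720 against 486.1, 494.2 and 391.7, a change of -0.50 ± 0.13 (adjusted p = 0.00436) as deposited and 0.18 (adjusted p = 0.136) after normalization. A dimmer probe set of this gene gave 0.16 in muscle and -0.31 in heart.

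Slc25a27, Slc25a14 and Slc25a30 are related in sequence to the uncoupling proteins, which let protons leak across the inner membrane, and Slc25a27 is best known from neurons. Slc25a27 was 56.28, 65.57 and 71.79 in Tk2+/+ and 146.8, 130.9 and 121.6 in Tk2-/- skeletal muscle. It was 47.11, 46.41 and 36.39 in Tk2+/+ and 87.13, 67.5 and 85.27 in Tk2-/- heart. The genotypes did not overlap in either tissue, and the gene rose by 0.89 ± 0.12 (adjusted p = 7.18e-05) in muscle and by 0.69 ± 0.12 (adjusted p = 0.000148) in heart as deposited.

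After quantile normalization its increase was 0.94 in muscle and 1.20 in heart, and the difference between the tissues did not pass (interaction -0.26, adjusted p = 0.415, and 0.20 as deposited, adjusted p = 0.408). Slc25a14 stayed at a signal of 15.52 to 23.69 in muscle and was called in neither tissue. Slc25a30 had -0.22 ± 0.12 in muscle (adjusted p = 0.255), and in heart -0.54 ± 0.12 (adjusted p = 0.00157) as deposited and 0.11 after normalization. Of 4 measured relatives under other symbols (Ucp1, Ucp3, Mtch1 and Mtch2), 2 were lower in knockout muscle (10.9% of all genes). Ucp3, the uncoupling protein of muscle, fell by 0.75 in muscle, and in heart by 1.15 as deposited, where its value after normalization was -0.45 and did not pass. Mtch1, an insertase of the outer membrane, fell by 0.41 in muscle and by 1.46 in heart, and by 0.77 in heart after normalization.

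The ATP-Mg/phosphate carriers Slc25a23, Slc25a24, Slc25a25 and Slc25a41 carry calcium-binding domains (Slc25a41 has a shortened form) and set the adenine nucleotide content of the matrix. In Tk2-/- skeletal muscle 2 of the 4 were lower and 0 higher by limma (10.9% and 11.6% of all genes). In heart after normalization 2 were lower and 0 higher (16% and 16.1% of all genes), with 0 higher at an unadjusted p under 0.05 in either tissue. Slc25a25 read 317.9, 104.5 and 154.4 in Tk2+/+ and 77.85, 41.01 and 26.1 in Tk2-/- skeletal muscle. The spread among the wild-type arrays was wide, yet the lowest of them was above the highest knockout array, and the gene fell by 1.64 ± 0.31 (adjusted p = 0.00135).

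In heart Slc25a25 read 27.97, 39.95 and 46.3 in Tk2+/+ and 11.06, 18.71 and 9.65 in Tk2-/- arrays. These low signals did not overlap either, with -0.89 ± 0.31 (adjusted p = 0.0256) as deposited and -0.74 (adjusted p = 0.112) after normalization. In muscle the call for Slc25a25 held without any single array. In heart it was lost, among others, without Tk2+/+ heart replicate 3 (adjusted p = 0.0894).

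Slc25a24 read 121.3, 106.8 and 93.55 in Tk2+/+ and 80.07, 82.06 and 80.77 in Tk2-/- skeletal muscle. The genotypes did not overlap, but the difference was small (-0.34 ± 0.11, adjusted p = 0.0383) and lost its call without any of 6 single arrays, with an adjusted p of up to 0.181. Heart arrays read 108.2, 99.92 and 106 against 42.43, 46.88 and 32.75, and fell by 1.10 ± 0.11 (adjusted p = 2.44e-06) as deposited and by 0.59 (adjusted p = 0.000263) after normalization.

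Slc25a23 read 166.7, 152 and 160.5 against 157.6, 112.9 and 131.4 in skeletal muscle, which overlapped (-0.24 ± 0.13, adjusted p = 0.234). In heart it read 344.6, 277.3 and 338.6 against 120, 142.4 and 104.1, and fell by 1.29 ± 0.13 (adjusted p = 2.5e-06) as deposited and by 0.60 (adjusted p = 0.000885) after normalization. Slc25a41 was dim in all groups. It read 28.65, 25.65 and 28.63 in Tk2+/+ and 25.92, 26.13 and 28.24 in Tk2-/- muscle, and 9.46, 14.72 and 10.31 in Tk2+/+ and 9.49, 10.12 and 14.55 in Tk2-/- heart.

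The ADP/ATP carriers Slc25a4, the isoform of heart and muscle, Slc25a5, the isoform of growing cells, and Slc25a31, known from testis, export ATP, and Slc25a3 supplies the phosphate for its synthesis. In skeletal muscle 0 of these 4 genes were called by limma, 0 had an unadjusted p under 0.05, and the methods' t-test called 0 once adjusted. Slc25a4 read 4146, 5708 and 4455 in Tk2+/+ and 4982, 5563 and 4855 in Tk2-/- skeletal muscle. Slc25a3 read 2979, 3733 and 2949 in Tk2+/+ and 3429, 3828 and 3202 in Tk2-/- skeletal muscle. Both overlapped between genotypes, with log2 fold changes of 0.12 ± 0.13 (adjusted p = 0.615) and 0.12 ± 0.11 (adjusted p = 0.557).

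In heart Slc25a4 read 5926, 6523 and 6215 in Tk2+/+ and 4615, 5646 and 4478 in Tk2-/- arrays. Slc25a3 read 4430, 4446 and 4502 in Tk2+/+ and 3026, 3606 and 3049 in Tk2-/- arrays. Both were lower as deposited, by 0.35 ± 0.13 (adjusted p = 0.0311) and 0.47 ± 0.11 (adjusted p = 0.00245), and at 0.09 (adjusted p = 0.324) and 0.00 (adjusted p = 0.974) after normalization.

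Slc25a5 read 1898, 1984 and 1612 in Tk2+/+ and 1850, 2464 and 2015 in Tk2-/- skeletal muscle, and 4134, 4179 and 4315 in Tk2+/+ and 2457, 2837 and 2304 in Tk2-/- heart. Its wild-type hearts were above all other arrays, and its heart change was -0.73 ± 0.12 (adjusted p = 0.000109) as deposited and -0.23 (adjusted p = 0.0757) after normalization. All 3 probe sets of the gene gave similar values (0.19 to 0.20 in muscle, -0.73 to -0.70 in heart), and near-identical copies of this gene may share its probes. Slc25a31 varied from 5.49 to 59.24 among heart arrays and was called in neither tissue.

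Among the carriers of amino acids, Slc25a12 and Slc25a13 exchange aspartate for glutamate in the malate-aspartate shuttle, which brings cytosolic reducing equivalents to the respiratory chain. The 250 bases before the start of Slc25a13 (chr6:6217174-6217423, minus strand, GRCm38.p6, RefSeq) are shown because this gene differed most between the wild-type tissues, with an E-box (CACGTG) and a CCAAT box in capitals.
Slc25a13: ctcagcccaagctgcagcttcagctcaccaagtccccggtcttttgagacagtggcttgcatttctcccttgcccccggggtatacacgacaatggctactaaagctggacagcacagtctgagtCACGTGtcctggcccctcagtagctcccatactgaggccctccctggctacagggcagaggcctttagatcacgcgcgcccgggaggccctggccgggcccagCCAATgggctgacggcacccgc

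Slc25a13 read 19.11, 11.86 and 17.44 in Tk2+/+ and 11.38, 16.76 and 12.71 in Tk2-/- skeletal muscle, against 752.5, 781 and 747.4 in Tk2+/+ and 556.7, 637.5 and 507.2 in Tk2-/- heart. Its signal was thus near the bottom of the scale on every muscle array and strong on every heart array. The tissue difference in Tk2+/+ pups was -4.60 ± 0.11 (adjusted p = 7.29e-14), which the offset of 16 makes smaller than the ratio of the signals. The genotype difference in heart was -0.42 ± 0.11 (adjusted p = 0.00587) as deposited and 0.27 (adjusted p = 0.0504) after normalization.

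Slc25a12 was strong in both tissues. It read 2955, 4264 and 3307 in Tk2+/+ and 3741, 4763 and 3894 in Tk2-/- skeletal muscle, and 2387, 2405 and 2465 in Tk2+/+ and 1649, 1686 and 1757 in Tk2-/- heart. Its change in muscle (0.24 ± 0.13, adjusted p = 0.211) did not pass, and that in heart was -0.51 ± 0.13 (adjusted p = 0.00312) as deposited and 0.08 (adjusted p = 0.533) after normalization. In Tk2+/+ pups it was higher in muscle by 0.52 ± 0.13 (adjusted p = 0.00419), opposite to Slc25a13.

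Slc25a22 imports glutamate. It read 100.3, 115.2 and 105.2 in Tk2+/+ and 143.1, 130.2 and 122.2 in Tk2-/- skeletal muscle, and 162.8, 153.6 and 170.7 in Tk2+/+ and 53.88, 75.79 and 55.17 in Tk2-/- heart. Neither tissue showed overlap, and the directions were opposite. The heart decrease was 1.21 ± 0.11 (adjusted p = 1.53e-06) as deposited and 0.61 (adjusted p = 0.00046) after normalization, while the muscle difference was 0.27 ± 0.11 (adjusted p = 0.114) as deposited and 0.30 (adjusted p = 0.0298) after it.

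Slc25a44 brings branched-chain amino acids into mitochondria. It read 198.2, 274.8 and 214.9 in Tk2+/+ and 308.1, 326.8 and 297.4 in Tk2-/- skeletal muscle, with no overlap, and rose by 0.43 ± 0.11 (adjusted p = 0.0125). The call was lost without Tk2+/+ skeletal muscle replicate 1 (adjusted p = 0.0747) or Tk2-/- skeletal muscle replicate 2 (adjusted p = 0.0586). In heart it read 175.8, 152.6 and 160.5 against 93.78, 103.6 and 98.27, a change of -0.64 ± 0.11 (adjusted p = 0.000176) as deposited and 0.00 (adjusted p = 0.976) after normalization. Slc25a15, the ornithine carrier of the urea cycle, had -0.19 ± 0.12 in muscle (adjusted p = 0.317) and was lower in heart, by 0.83 as deposited and by 0.31 (adjusted p = 0.0177) after normalization. The remaining carriers of this group, Slc25a2 and Slc25a18, were dim and not called between genotypes.

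The measured carriers of coenzymes and cofactors were Slc25a16 and Slc25a42 (coenzyme A), Slc25a17 (coenzyme A, FAD and NAD+ of peroxisomes), Slc25a26 (S-adenosylmethionine), Slc25a32 (folate or FAD) and Slc25a51 (NAD+). In skeletal muscle 2 of these 6 genes were higher and 0 lower (11.6% and 10.9% of all genes), and the log2 fold changes ran from -0.22 to 0.43. Slc25a17 read 261.6, 338.7 and 315.3 in Tk2+/+ and 383.5, 489.2 and 382.5 in Tk2-/- skeletal muscle. The genotypes did not overlap (0.43 ± 0.13, adjusted p = 0.0257), and the call was lost without Tk2+/+ skeletal muscle replicate 1 (adjusted p = 0.131) or Tk2-/- skeletal muscle replicate 2 (adjusted p = 0.146).

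In heart Slc25a17 read 330, 302.4 and 318.4 against 176.4, 203.8 and 148.7, a change of -0.80 ± 0.13 (adjusted p = 9.73e-05) as deposited and -0.11 (adjusted p = 0.468) after normalization. Slc25a32 was higher in muscle by 0.39 ± 0.13 (adjusted p = 0.044), with a mean signal of 131 ± 29.3 (SD, n = 3) in Tk2+/+ and 174 ± 7.31 in Tk2-/- arrays. The lowest knockout array (169.6) was just above the highest wild-type array (163.7). Its call too was lost without Tk2+/+ skeletal muscle replicate 1 or Tk2-/- skeletal muscle replicate 2. All 6 genes of this group were lower in heart as deposited. So were 49% of all genes, and 84.8% of those with a mean signal above 256. After normalization 1 was higher (Slc25a16, 0.34, adjusted p = 0.0014) and 0 lower by limma, with 2 higher and 0 lower at an unadjusted p under 0.05.

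The acylcarnitine carrier Slc25a20 exchanges fatty acylcarnitines for free carnitine on the way to beta-oxidation. It read 477.4, 657.8 and 548 in Tk2+/+ and 593.1, 820.7 and 667 in Tk2-/- skeletal muscle, which overlapped (0.30 ± 0.15, adjusted p = 0.179). In heart it read 1190, 1175 and 1269 in Tk2+/+ and 659.2, 785.4 and 557.3 in Tk2-/- arrays. The heart difference was -0.86 ± 0.15 (adjusted p = 0.000139) as deposited and -0.16 (adjusted p = 0.307) after normalization. Slc25a29, a relative that carries basic amino acids and was first described for acylcarnitines, had 0.08 in muscle, and -0.29 in heart as deposited and -0.20 after normalization. The partner of Slc25a20, Cpt2, which rebuilds acyl-coenzyme A in the matrix, rose by 0.66 in muscle and fell by 1.26 in heart, and by 0.59 in heart after normalization.

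The di- and tricarboxylate carriers Slc25a1 (citrate), Slc25a10 (dicarboxylates), Slc25a11 (2-oxoglutarate and malate) and Slc25a21 (2-oxoadipate) feed lipid synthesis, the shuttles and amino acid breakdown. In muscle 0 of these 4 were called by limma and 0 had an unadjusted p under 0.05, and their log2 fold changes ran from -0.12 to 0.26. In heart Slc25a10 and Slc25a11 were lower as deposited (-0.83 and -0.78) and did not pass after normalization (-0.22 and -0.23).

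Of the 9 carriers with no settled substrate in the lists used, Slc25a34 and Slc25a35 are close relatives. In muscle 1 of the 9 was lower (Slc25a35, against 10.9% of all genes). In heart 4 were lower as deposited (49% of all genes) and 1 after normalization (16%). Slc25a35 read 130.6, 170.2 and 149.4 in Tk2+/+ and 100.4, 112.6 and 117 in Tk2-/- skeletal muscle, without overlap (-0.39 ± 0.13, adjusted p = 0.0415). Heart arrays read 109.7, 97.78 and 120.2 against 34.38, 44.99 and 27.12, and fell by 1.29 ± 0.13 (adjusted p = 2.5e-06) as deposited and by 0.82 (adjusted p = 0.000385) after normalization. No member fell more in heart after normalization, and as deposited Slc25a23 fell by the same amount. The muscle call for Slc25a35 was lost without any of 7 single arrays, with an adjusted p of up to 0.154.

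Slc25a34 read 119.4, 149.4 and 158 in Tk2+/+ and 259.5, 181.2 and 162.4 in Tk2-/- skeletal muscle, and 758.8, 726.4 and 891.4 in Tk2+/+ and 547.8, 740.1 and 482.5 in Tk2-/- heart. The muscle arrays did not overlap, but knockout replicate 3 was close to the wild-type range, and the difference was 0.44 ± 0.17 (adjusted p = 0.0878) as deposited and 0.45 (adjusted p = 0.0455) after normalization. The heart arrays overlapped, with -0.43 ± 0.17 (adjusted p = 0.0485) as deposited and 0.25 (adjusted p = 0.255) after normalization. Slc25a46, which acts at the outer membrane in mitochondrial shape rather than as a carrier, had 0.14 ± 0.11 in muscle (adjusted p = 0.456). Its heart value was -0.66 as deposited and 0.04 after normalization. A dimmer probe set of Slc25a46 gave 0.28 in muscle, where its arrays did not overlap, and -0.37 in heart as deposited.

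The dim members, without a signal of at least 32 in 3 or more arrays, were Slc25a2, Slc25a14, Slc25a18, Slc25a21, Slc25a41, Slc25a43, Slc25a48, Slc25a53 and Slc25a54. Between genotypes 0 of these 9 were called in either tissue by limma and 0 had an unadjusted p under 0.05 as deposited, and at signals this low the offset of 16 makes any change smaller. The other 37 members held all genotype calls.

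Other transport proteins and partner enzymes were counted on both scales, as deposited and after quantile normalization within the tissue. The muscle counts are to be read against 11.6% of all genes higher and 10.9% lower as deposited. After normalization these shares were 14.5% and 14.5%. The share of all genes at an unadjusted p under 0.05 was not counted. Of 21 other mitochondrial transporters, 2 were higher and 0 lower in Tk2-/- skeletal muscle by limma as deposited, 5 and 2 had an unadjusted p under 0.05, and 3 were higher and 2 lower after normalization. The genes called higher on both scales were Slc8b1, the mitochondrial sodium/calcium exchanger (0.64), and Sfxn1, a serine transporter (0.62). In heart 19 of the 21 were lower as deposited, where 49% of all genes were, and 2 were higher and 2 lower after normalization, where 16.1% and 16% of all genes were called. The voltage-dependent anion channels Vdac1, Vdac2 and Vdac3 had 0.28, -0.01 and 0.15 in muscle. Of 6 genes of the malate-aspartate and glycerophosphate shuttles, Gpd1 and Gpd2, the glycerophosphate shuttle enzymes, were lower in muscle by 0.51 and 0.69, and stayed called after normalization. Of 6 enzymes of citrate, glutamate and ornithine metabolism, Glud1 (0.63) and Oat (0.93) were higher in muscle, and 3 were higher after normalization. Of 9 kinases of phosphotransfer, Ckb, a creatine kinase, and Ak4, an adenylate kinase of the matrix, were lower in muscle as deposited (-0.61 and -0.81). After normalization 6 of the 9 were lower (14.5% of all genes), Ak1 (-0.38) and Ak3 (-0.21) among them. Of 6 genes of the carnitine system, Cpt2 was higher in muscle on both scales, and Cpt1a, which makes acylcarnitines at the outer membrane, had -0.38 (adjusted p = 0.0597) as deposited and -0.45 (adjusted p = 0.00561) after normalization.

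Promoter letters were compared over the 46 RefSeq promoters of the 36 members that have one in the table, on both strands, within 250 bases before the start. A GC box (GGGCGG) was found in 69.6% of them and in 32.7% of all 32851 promoters, a CCAAT box (CCAAT) in 45.7% and 33.8%, and an E-box (CACGTG) in 17.4% and 6.02%. The ETS motif CCGGAAG was in 13% and 6.91%, and the CRE motif TGACGTCA in 4.35% and 1.55%. These are counts of letters, and they say nothing of whether a factor binds there. Of the 3 promoters shown for genes that were higher in knockout muscle, those of Slc25a28 and Slc25a33 held a CCAAT box and a GC box, and that of Slc25a38 held neither.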

How the data were processed

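Total RNA of 12 samples had been hybridised to Affymetrix Mouse Gene 1.1 ST arrays. The authors deposited 1 intensity per probe set and array on a linear scale, made with Affymetrix Expression Console and PLIER per the submitters' processing notes, which give no version. The sources used here do not name the normalization. The deposited arrays do not share 1 distribution, and their medians differ. All 12 arrays were read. No detection calls come with the table, and the number of arrays limits the precision.

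Of 35556 probe sets, 21218 carried 1 symbol, 1881 several (1 of them with a member, not used) and 12457 none. The brightest probe set was kept for each of 18820 genes. The 4 group means of log2(intensity + 16) were fitted over all genes with limma 3.58.1 in R 4.3.3 (lmFit, eBayes, 8 residual degrees of freedom, 2-sided, Benjamini-Hochberg threshold 0.05), and the interaction and the tissue difference came from the same fit. The members and lists were chosen with earlier results of these data known. Members named with every array were nucleotide, phosphate and acylcarnitine carriers, and those with the largest called changes per contrast (5 each way between genotypes without overlap, 4 each way between wild-type tissues, 3 each way in the interaction). Others were named by role or after their values were seen.

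The fit was also run on simulated data with 200 of 18820 genes changed. For skeletal muscle, 25.4%, 92.2% and 98.6% of changes of 0.5, 1 and 2 (log2) were found, and 6 of 153 calls were false. For heart, the shares found were 43.5%, 97.3% and 100%, and 7 of 170 calls were false. Each percentage rests on 62 to 74 genes, and a difference in sensitivity between the tissues was not tested. Among the measured genes 49% were called lower in heart as deposited, a far larger part than the simulation changed. Its false calls therefore cannot be carried over to the heart calls. Alternatives were other scalings, an offset of 1, a filter on dim genes, other uses of probe sets, other fits, the methods' t-test (also at the study's fold of 2 and unadjusted p of 0.05, with the fold on either scale), replicate blocks and leaving out each array. Correlations between same-numbered arrays ran from -0.193 to 0.218, and those between other arrays from -0.181 to 0.238. With 3 arrays per group these values cannot decide whether a number marks the same pup. Promoter letters were read with Python 3.11.15.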

Additional observations from a re-analysis of the deposited data

Results flagged for a closer look

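For 29 members the genotype effect differed between the tissues by the interaction term as deposited (limma, adjusted p under 0.05), each with a value in skeletal muscle above that in heart. The log2 interactions were 1.48 for Slc25a22, 1.23 for Slc25a17, 1.18 for Slc25a37, 1.16 for Slc25a20, 1.07 for Slc25a44, 1.05 for Slc25a23 and 1.0 for Slc25a33. They were 0.99 for Slc25a38, 0.93 for Slc25a5, 0.92 for Slc25a42, 0.90 for Slc25a35, 0.87 for Slc25a34, 0.80 for each of Slc25a32, Slc25a46 and Slc25a36, 0.79 for Slc25a51, 0.76 for Slc25a24 and 0.75 for Slc25a12. They were 0.74 for Slc25a11, 0.71 for Slc25a10, 0.65 for Slc25a26, 0.64 for Slc25a15, 0.62 for Slc25a28, 0.59 for Slc25a3, 0.54 for Slc25a16, 0.48 for Slc25a40, 0.46 for each of Slc25a45 and Slc25a4, and 0.38 for Slc25a29. The median interaction over all genes was 0.3, and 41.3% of all genes were called in this direction. After quantile normalization within each tissue, 1 of the 29, Slc25a22 (0.91), was past the threshold.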

How the results depend on the processing

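The scaling of the arrays decided most heart calls. Shares of all genes were counted as deposited and at the study's thresholds with the fold on the deposited means. They were also counted after quantile normalization, within the tissue for genotype and over 12 arrays between wild-type tissues. Under the other settings they were not counted, so those counts of members cannot be set against a background. The count of members called higher and lower in heart (2 and 31 as deposited) was 11 and 12 after median centring, 3 and 6 after quantile normalization within each tissue, 4 and 6 after quantile normalization over 12 arrays and 13 and 6 after upper-quartile scaling. The interaction (29 higher, 0 lower) gave 15 and 3 after median centring, 1 and 1 after either quantile normalization and 2 and 3 after upper-quartile scaling. In skeletal muscle (7 higher, 4 lower) median centring gave 11 and 2, and between wild-type tissues (10 higher) it gave 6 and quantile normalization over 12 arrays 5. With an offset of 1 in place of 16, 2 members were lower in muscle. Array weights gave 11 higher in muscle, 4 higher in heart and 2 lower in the interaction. The methods' t-test after Benjamini-Hochberg adjustment called 2 higher and 0 lower in muscle (7 and 6 at an unadjusted p under 0.05) and 1 higher in heart. At the study's thresholds, with the fold of 2 on the log2(intensity + 16) scale, it called 1 higher and 1 lower in muscle, 0 higher and 5 lower in heart, and 1 higher and 4 lower between wild-type tissues. With the fold on the ratio of the deposited group means, an alternative chosen after seeing the data, these were 2 and 1, 0 and 7, and 2 and 5. Leaving out 1 array gave 3 to 9 higher and 2 to 4 lower in muscle, 2 to 3 higher and 25 to 31 lower in heart, 24 to 29 higher and 0 to 1 lower for the interaction, and 8 to 11 higher and 13 to 17 lower between wild-type tissues. The count lower in muscle was 2 without Tk2+/+ skeletal muscle replicate 2, without any 1 of the Tk2-/- skeletal muscle replicates, or without Tk2-/- heart replicate 1.

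The replicate numbers were not used to pair samples in the main fit, and whether they mark the same pup is not known. With the replicate number as a block within each tissue, 7 members were higher and 2 lower in muscle, 2 higher and 30 lower in heart, and 28 higher and 1 lower in the interaction. The decreases of Slc25a24 and Slc25a35 in muscle (adjusted p = 0.0584 and 0.0673) and of Slc25a34 in heart (adjusted p = 0.1) lost their calls under the block. Read as the pup that gave both tissues, the number had a consensus correlation of -0.019, and the counts were 7 and 4 in muscle, 2 and 31 in heart, 28 and 0 in the interaction and 10 and 16 between wild-type tissues.

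Some log2 fold changes turned sign, and the cause was not tested. In heart after upper-quartile scaling the values were 0.28 for Slc25a3, 0.40 for Slc25a4, 0.01 for Slc25a5, 0.24 for Slc25a12, 0.31 for Slc25a13, 0.39 for Slc25a33, 0.30 for Slc25a34, 0.23 for Slc25a36, 0.28 for Slc25a38, 0.11 for Slc25a39, 0.32 for Slc25a41 and 0.02 for Slc25a44. In heart after median centring they were 0.10 for Slc25a4, 0.03 for Slc25a13, 0.21 for Slc25a33, 0.01 for Slc25a34, 0.03 for Slc25a38 and 0.44 for Slc25a41. In heart after quantile normalization within each tissue and over 12 arrays they were 0.09 and 0.07 for Slc25a4, 0.08 and 0.08 for Slc25a12, 0.27 and 0.27 for Slc25a13, 0.34 and 0.33 for Slc25a33, 0.25 and 0.24 for Slc25a34, 0.18 and 0.18 for Slc25a36, 0.28 and 0.28 for Slc25a38, 0.05 and 0.05 for Slc25a39 and 0.01 and 0.01 for Slc25a41. In muscle they were -0.06 and -0.06 for Slc25a3, -0.04 and -0.04 for Slc25a4, -0.02 and -0.01 for Slc25a5 and 0.03 and 0.03 for Slc25a41. Median centring gave 0.02 for Slc25a37 and 0.06 for Slc25a41 in muscle. Leaving out 1 array gave -0.24 to 0.03 for Slc25a37 in muscle and -0.09 to 0.08 for Slc25a41 in heart. The other values of named members under the alternatives did not turn sign. Of these, 1290 kept their side of the threshold, 138 lost the call and 13 gained it. Among the 138 were values of 0.00 in heart for Slc25a3 and Slc25a44 after either quantile normalization, which kept no direction.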
